A study of Bos taurus with 6 samples.

Results

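The microRNAs bta-miR-103, bta-miR-107, bta-miR-33a and bta-miR-378 were followed in the extracellular vesicles (EVs) of cow milk, because their counterparts in other mammals are known for roles in lipid metabolism. Members were found by name in the deposited count table. Of 5 names looked for, 4 had a row, bta-miR-33b had none, and no lettered form of miR-378 was listed. The 4 members stood among 779 miRNAs, of which 276 were known bovine miRNAs and 503 were predicted by the authors. bta-miR-103 was chosen because its normalized values do not overlap between the diets, so its diet values are given as a description and without a test.

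Small RNA was sequenced from milk EVs of 6 Holstein cows in mid lactation (101 ± 10 days in milk, 574 ± 36 kg body weight, 32 ± 2 kg milk per day), kept in climate chambers at 20 °C and 40% humidity. The control diet was a total mixed ration (TMR), fed to 3 cows. In the replacement diet, fed to 3 other cows, some of the alfalfa hay was exchanged for whole cotton seed and soybean hull. Each library came from 1 cow, and EVs were isolated with a commercial kit. The total count of known miRNAs was 70490, 161240 and 61156 in control cows 1 to 3 and 176919, 96254 and 69625 in replacement cows 1 to 3.

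A miRNA is a short RNA that guides a protein complex to messenger RNAs, mostly through its seed, the bases near its 5′ end, and lowers their translation or stability. miR-103 and miR-107 lie in introns of pantothenate kinase genes, which make the enzymes that start coenzyme A synthesis, and are known for effects on insulin sensitivity in liver and fat. miR-33a lies in the gene of SREBF2, the main regulator of cholesterol synthesis, and represses the cholesterol exporter ABCA1, while miR-378 has been linked to fat cell differentiation and has a copy in PPARGC1B, a coactivator of mitochondrial genes. In RefSeq genes of the assembly ARS-UCD2.0, MIR103-1 lay within PANK3, MIR103-2 within PANK2, MIR107 within PANK1, MIR33A within SREBF2 and MIR378-1 within PPARGC1B. Of the 4 other miR-378 genes listed, MIR378-2 lay within CALCR, MIR378C within ZNF521, MIR378D within MSI2 and MIR378B in no protein-coding gene.

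The mature sequences of the 4 members are shown because bta-miR-103 and bta-miR-107 can hardly be told apart by sequence, on which the reading of their counts depends. They are written 5′ to 3′ as DNA letters, with the seed (bases 2 to 8) in capitals.
bta-miR-103: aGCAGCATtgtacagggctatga
bta-miR-107: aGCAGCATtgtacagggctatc
bta-miR-33a: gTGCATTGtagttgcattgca
bta-miR-378: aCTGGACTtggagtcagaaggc
The first 21 bases of bta-miR-103 and bta-miR-107 were identical. Counted from the 5′ end, the difference was the substitution G22C from bta-miR-103 to bta-miR-107, and bta-miR-103 had 23 bases against 22. A read that ends before base 22 therefore fits both miRNAs equally well, and how such reads were counted is not given in the sources used here. Their separate counts are uncertain for that reason. No other known or predicted miRNA of the table had the seed of bta-miR-103 and bta-miR-107, and bta-miR-33a and bta-miR-378 each had a seed found in no other row.

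The pair belongs to the wider group of miR-15 and miR-107 relatives, whose members carry the letters AGCAGC at their 5′ end. These letters were searched on the given strand within the first 7 bases. They were found in 7 of 276 known miRNAs (2.54%) and in 0 of 503 predicted ones. In bta-miR-103 and bta-miR-107 they started at base 1, and in the other 5 at base 2, so that the seeds are shifted. Relatives from the group are shown for this shift, with the seed in capitals.
bta-miR-15b: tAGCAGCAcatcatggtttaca
bta-miR-16b: tAGCAGCAcgtaaatattggc
bta-miR-503-5p: tAGCAGCGggaacagtactg

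The first question was how abundant each member was in the milk EVs. Levels are given as a share of the summed counts of the known miRNAs of a cow. bta-miR-103 held 0.133% ± 0.0955 (SD, n = 6 cows) and ranked 62 of 276. bta-miR-107 held 0.0643% ± 0.0570 (SD, n = 6) and ranked 78. Further down, bta-miR-378 held 0.0146% ± 0.0157 (SD, n = 6, rank 128) and bta-miR-33a 0.00227% ± 0.00557 (SD, n = 6, rank 202). Without control cow 1, the mean share of bta-miR-378 was 0.00928%. Each difference between neighbours in this order was smaller than the SD of the more abundant member and larger than that of the less abundant one. Only bta-miR-103 and bta-miR-107 were detected in all 6 cows. With the replacement diet alone their order turned, at 0.101% for bta-miR-107 and 0.0572% for bta-miR-103.

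Next to bta-miR-103 in mean share stood miRNAs of unrelated families. Just above it were bta-miR-139 (0.145%), bta-miR-27a-3p (0.140%) and bta-miR-128 (0.137%), and just below it bta-miR-146a (0.132%), bta-miR-30f (0.129%) and bta-miR-221 (0.118%). These means differed by less than the SD over cows of bta-miR-103.

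The second question was how the levels differed between the diets. The counts of bta-miR-103 were 153, 210 and 170 in control cows 1 to 3 and 118, 58 and 31 in replacement cows 1 to 3. As a share of known miRNAs this was 0.217% (95% Wilson interval 0.185 to 0.254), 0.130% (0.114 to 0.149) and 0.278% (0.239 to 0.323) in the control cows. In the replacement cows it was 0.0667% (0.0557 to 0.0799), 0.0603% (0.0466 to 0.0779) and 0.0445% (0.0314 to 0.0632). All 3 replacement cows lay below all 3 control cows, which is the pattern it was chosen for, and the intervals of the diets did not overlap either. Intervals, and the limits for a count of 0 given below, cover counting error only.

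The mean share of bta-miR-103 was 0.208% ± 0.0742 (SD, n = 3) with the control diet and 0.0572% ± 0.0114 (SD, n = 3) with the replacement diet, 3.65-fold lower. Its rank among known miRNAs was 50, 59 and 50 in control cows and 74, 79 and 100 in replacement cows. In the deposited RPM values (counts divided by 1 total of reads per cow), its values were 11.7, 16.7 and 13.7 in control cows and 8.83, 4.78 and 2.46 in replacement cows, and the mean was 2.62-fold lower. The diets thus stood apart on both scales, with a smaller difference in RPM.

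The near-identical bta-miR-107 had its higher values in replacement cows. Its counts were 17, 1 and 36 in control cows and 66, 111 and 104 in replacement cows. The shares were 0.0241% (Wilson 0.0151 to 0.0386), 0.000620% (0.000109 to 0.00351) and 0.0589% (0.0425 to 0.0815) on the control diet, and 0.0373% (0.0293 to 0.0475), 0.115% (0.0958 to 0.139) and 0.149% (0.123 to 0.181) on the replacement diet. Replacement cow 1 lay below control cow 3, so the diets overlapped as shares. In RPM they did not: the values were 1.30, 0.0795 and 2.90 in control cows and 4.94, 9.15 and 8.25 in replacement cows. The mean share was 0.0279% ± 0.0293 (SD, n = 3) with the control diet and 0.101% ± 0.0575 (SD, n = 3) with the replacement diet.

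bta-miR-378 had few counts, with 29, 22 and 15 in control cows and 9, 3 and 0 in replacement cows. Its shares were 0.0411% (Wilson 0.0286 to 0.0591), 0.0136% (0.00901 to 0.0207) and 0.0245% (0.0149 to 0.0405) on the control diet. On the replacement diet they were 0.00509% (0.00268 to 0.00967), 0.00312% (0.00106 to 0.00916) and 0 of 69625 counts, which allows a share of up to 0.00431%. All replacement cows were below all control cows, but the Wilson intervals of control cow 2 and replacement cows 1 and 2 overlapped.

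bta-miR-33a was found in 1 cow alone. Control cow 2 had 22 counts, or 0.0136% (Wilson 0.00901 to 0.0207), and the other 5 cows had 0. A count of 0 allowed a share of up to 0.00426% in control cow 1, 0.00491% in control cow 3, and 0.00170%, 0.00312% and 0.00431% in replacement cows 1 to 3. No diet difference of bta-miR-33a could be read from a single cow.

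**Figure D1:**
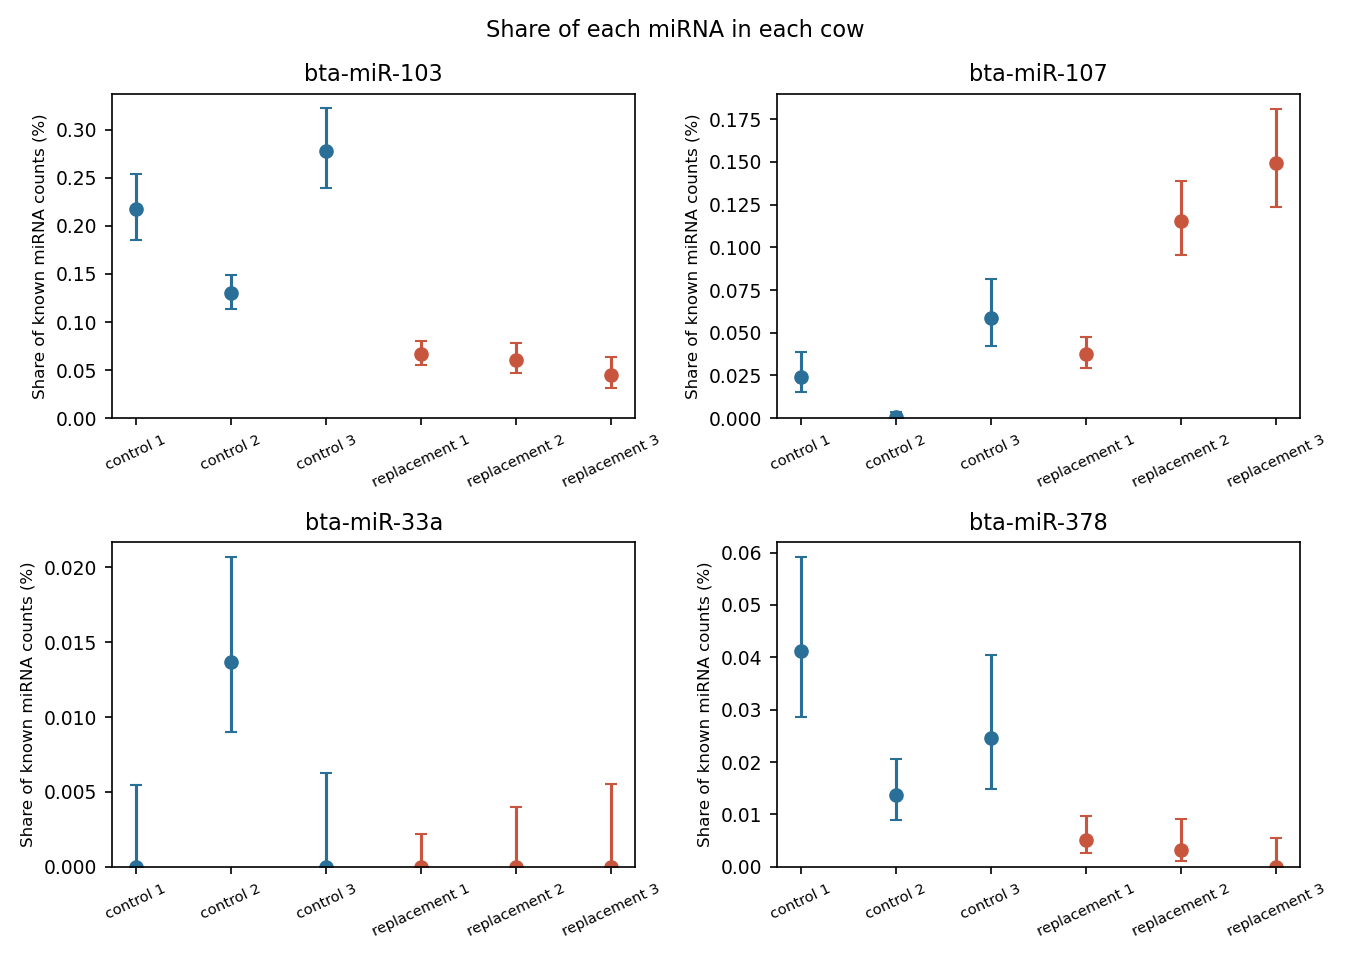
The share of each member in the counts of known miRNAs (vertical axis, percent) is plotted for each cow, with control cows in blue, replacement cows in red and bars for the 95% Wilson interval. The replacement cows lie between 0.0445% and 0.0667% for bta-miR-103, all below the control cows, while the diets overlap for bta-miR-107.

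Non-overlap between 3 and 3 cows was also seen in other miRNAs. Among 144 known miRNAs with a mean of 10 or more counts, the share was lower in all replacement cows than in all control cows for 7 (4.86%) and higher for 5 (3.47%). Of the 3 members with that many counts, bta-miR-103 and bta-miR-378 were among the 7 lower ones, and nothing is read from this, since non-overlap was the reason for the choice. In RPM, 6 were lower (4.17%) and 6 higher (4.17%), with bta-miR-107 among the higher ones. After TMM normalization (trimmed mean of M-values, the scaling of edgeR), 9 were lower (6.25%) and 5 higher (3.47%), and bta-miR-107 overlapped again. As a share of known and predicted miRNAs together, 3 were lower (2.08%) and 15 higher (10.4%), with bta-miR-103 and bta-miR-378 among the lower and bta-miR-107 among the higher ones. On that scale a difference in the predicted miRNAs moves the share of every known one.

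Of the 12 miRNAs apart as a share of known miRNAs, 11 had a fitted change. The lower ones of largest size among these 11 were bta-miR-378, bta-miR-103 and bta-miR-221, and the higher ones were bta-miR-32, bta-miR-380-3p and bta-miR-92b. bta-miR-221 had a mean share of 0.169% with the control and 0.0673% on the replacement diet, with the nearest cows at 0.118% and 0.114%. bta-miR-32 had 0.00507% and 0.0288%. The miRNA without a fit, bta-miR-328, named after its values were seen, held 0.00426% to 0.0664% in control cows and had no counts in replacement cows.

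The diets were compared across all miRNAs with the quasi-likelihood test of edgeR. No miRNA of 227 tested passed a Benjamini-Hochberg adjusted p of 0.05 (0%). At an unadjusted p under 0.05 there were 8 miRNAs, and limma-voom called 0 of 227. DESeq2, run on all 779 miRNAs, called 3 of the 767 with an adjusted p. On the same 779, edgeR without its filter called 15. Those 3 and 15 were all predicted miRNAs. Of the 4 members 3 passed the filter on low counts. bta-miR-378 passed through its control cows alone, and bta-miR-33a did not pass.

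The fitted log2 fold change, replacement over control diet, was -1.70 (SE 0.61) for bta-miR-103, given without a test. For bta-miR-107 it was 1.92 (SE 1.24; edgeR adjusted p = 0.986), which did not pass the test, and the diets overlapped as shares of known miRNAs and as TMM-normalized values but not in RPM or as shares of all miRNAs. For bta-miR-378 it was -2.84 (SE 1.44), given as a description, since the miRNA was tested only through the diet in which it was high. Each SE was computed back from the test statistic of the fit, so it is no separate measure of spread. Scaling by library size alone moved the median log2 fold change of all 227 miRNAs from 0.03 to 0.63. The fold changes then were -1.07 for bta-miR-103, 2.71 for bta-miR-107 and -2.29 for bta-miR-378, each in the same direction as before.

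**Figure D2:**
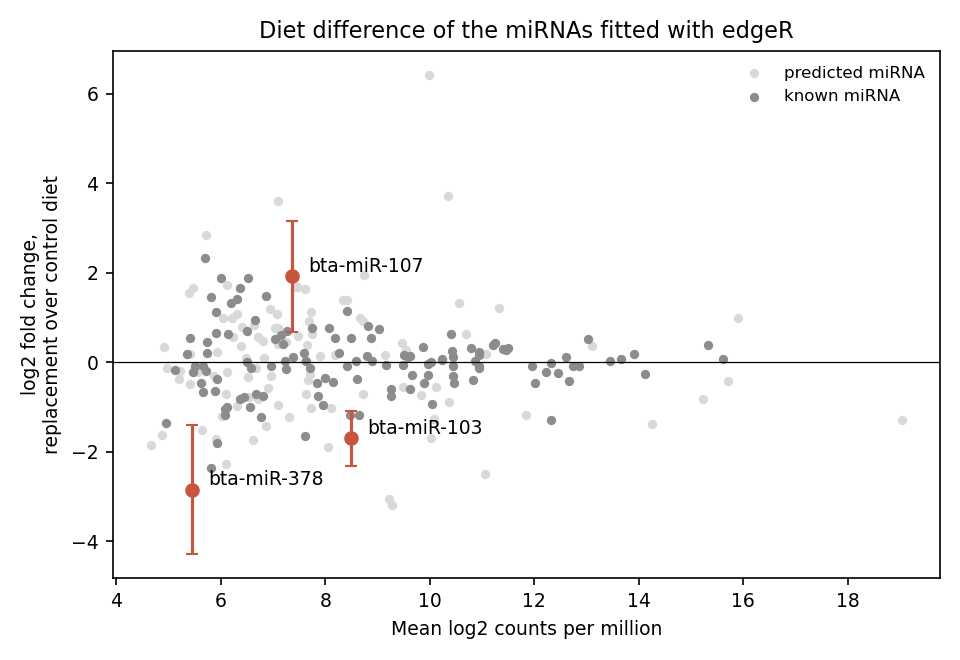
The log2 fold change, replacement over control diet (vertical axis), is plotted against the mean log2 CPM (counts scaled to a common library total, horizontal axis) of the 227 miRNAs fitted with edgeR. Predicted miRNAs are light grey, known miRNAs dark grey, and members red with bars of 1 SE. bta-miR-107 lies above 0 at 1.92, and bta-miR-103 and bta-miR-378 lie below it at -1.70 and -2.84.

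Because their sequences differ by so little, bta-miR-103 and bta-miR-107 were also set against each other within each cow. bta-miR-103 made up 90.0% (Wilson 84.6 to 93.7), 99.5% (97.4 to 99.9) and 82.5% (76.8 to 87.1) of the counts of the pair in control cows 1 to 3. In replacement cows 1 to 3 it made up 64.1% (57.0 to 70.7), 34.3% (27.6 to 41.8) and 23.0% (16.7 to 30.7). The diets did not overlap, and bta-miR-107 was the more counted of the pair in replacement cows 2 and 3 only. The mean was 90.7% ± 8.52 (SD, n = 3) with the control and 40.5% ± 21.3 (SD, n = 3) with the replacement diet. As bta-miR-103 was chosen on the same contrast, this is a description too.

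The sum of the pair overlapped between the diets. Together they had 170, 211 and 206 counts in control cows and 184, 169 and 135 in replacement cows. As a share, the sum was 0.241%, 0.131% and 0.337% in control cows and 0.104%, 0.176% and 0.194% in replacement cows. The mean of the sum was 0.236% ± 0.103 (SD, n = 3) and 0.158% ± 0.0475 (SD, n = 3). Counted as 1 miRNA, a setting chosen after seeing the data, the pair had a log2 fold change of -0.55 (SE 0.47), given without a test because it contains bta-miR-103. How reads were assigned within the pair was not tested.

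**Figure D3:**
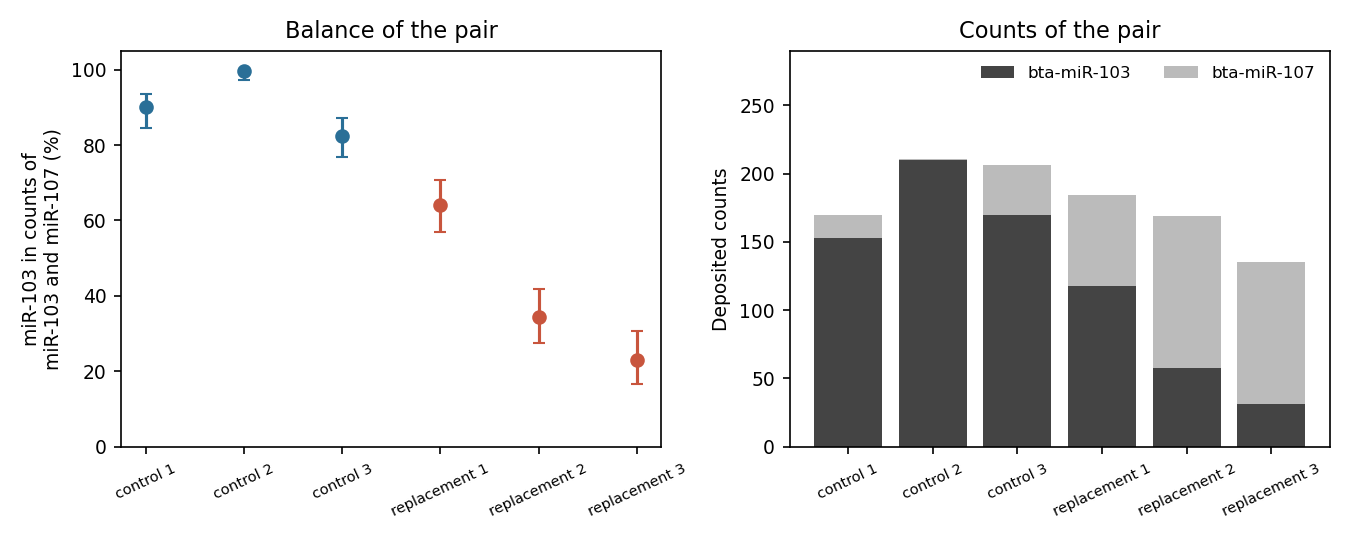
On the left, the percentage of bta-miR-103 in the counts of bta-miR-103 and bta-miR-107 is plotted for each cow, with control cows in blue, replacement cows in red and 95% Wilson intervals. On the right, bars show the deposited counts of bta-miR-103 (dark) and bta-miR-107 (light) stacked for each cow. The percentage is 82.5% or more in control cows and 64.1% or less in replacement cows, while the stacked counts range from 135 to 211.

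Other near-identical miRNAs were compared in the same way, after the values of the pair had been seen. Sequences were aligned from base 1 without a shift. Among known miRNAs with at most 2 differences in bases and length, which could lie at any base, 30 pairs had a mean of 10 or more counts in each miRNA. The mean log2 ratio of bta-miR-103 to bta-miR-107, with 1 added to each count, was 4.01 ± 2.39 (SD, n = 3) with the control diet and -0.60 ± 1.30 (SD, n = 3) with the replacement diet. The difference was -4.61, or -3.26 without control cow 2 and its single count of bta-miR-107 (a setting chosen after seeing the data), and the median size over the 30 pairs was 0.29. The next largest was 3.43, for bta-miR-10225a and bta-miR-10225b with 77 and 127 counts, whose ratio overlapped between diets. Many of the other pairs had far more counts. As bta-miR-103 was chosen on this contrast, nothing is read from its place among the pairs. The ratio did not overlap between diets in 2 of the 30 pairs, the other being bta-let-7a-5p and bta-miR-98 with a difference of -1.04, named here after its values were seen. The pairs are not independent, since let-7 miRNAs occur in several of them.

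**Figure D4:**
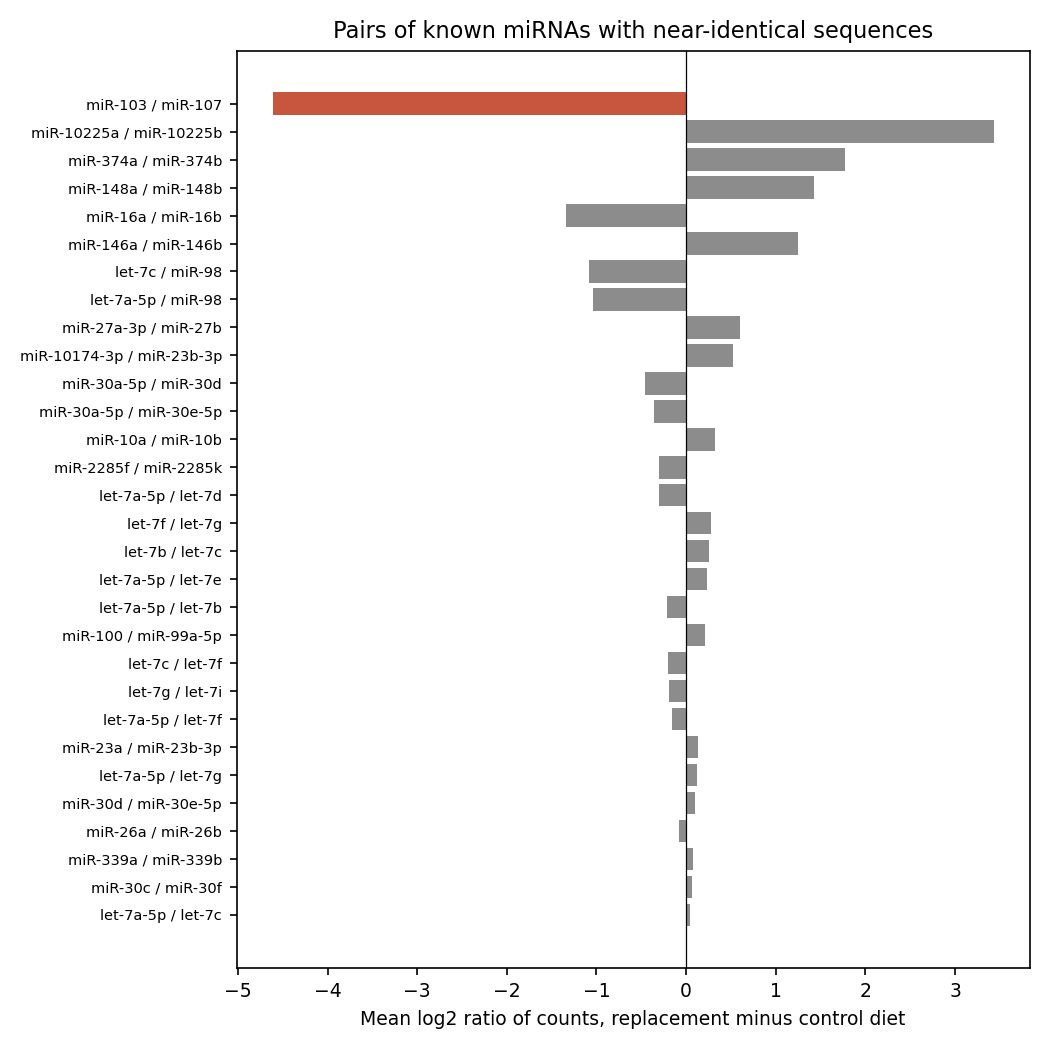
Bars give the mean log2 ratio of the counts of the first to the second miRNA, replacement minus control diet (horizontal axis), for 30 pairs of known miRNAs with near-identical sequences (vertical axis). The red bar of bta-miR-103 and bta-miR-107 reaches -4.61.

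The known miRNAs whose pattern over the 6 cows was nearest to that of bta-miR-103 were bta-miR-140, bta-miR-25, bta-miR-29a, bta-miR-320a and bta-miR-185. Nearness was the root mean square difference of centred log2 TMM-normalized CPM, and it was 0.64 for bta-miR-140 and 0.73 for bta-miR-185, against a median of 1.36. The shares of bta-miR-140 were 0.122%, 0.0980% and 0.141% in control cows and 0.0447%, 0.0561% and 0.0876% in replacement cows. bta-miR-378 stood at 0.84 and bta-miR-107 at 2.73. The pattern compared with is the one bta-miR-103 was chosen for, and the distance also grows with the scatter of a miRNA between cows, so it is a description only. Of the 7 red blood cell markers summed below, bta-miR-185 was among the 5 nearest, 5 lay nearer than the median, and bta-miR-16a and bta-miR-16b lay farther. bta-miR-185 is also on the list of cholesterol transport miRNAs, and bta-miR-29a is on that of adipocyte and milk fat miRNAs. Members of the other lists were not counted in this way, so nothing is read from it.

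The rest of the group of miR-15 and miR-107 relatives was scarce. Of 9 names listed, 5 had a row, with 6 rows in all, since both arms of miR-503 were counted. The most abundant was bta-miR-16b with 0.0319% ± 0.0224 (SD, n = 6), and its log2 fold change was -0.13 (SE 1.48; edgeR adjusted p = 0.986). Of the 3 miRNAs tested, 0 passed the test, all 3 had a log2 fold change below 0, and the median was -0.64 against 0.03 over all miRNAs tested. With library size alone, 1 of the 3 was above 0. The median of -0.64 is the value of bta-miR-16a, which with bta-miR-16b is also among the red blood cell markers below. The summed share of the group was 0.0525%, 0.0936% and 0.157% in control cows and 0.0848%, 0.0738% and 0.0632% in replacement cows, so the diets overlapped. bta-miR-503-3p, which lacks the letters AGCAGC, held 0.0345% of known counts in replacement cow 3, more than any other member of the 0.0632% there. It had no counts in the other 5 cows.

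miRNAs linked to cholesterol transport, the process in which miR-33a acts, were plentiful by contrast. Of 21 names 19 had a row, and together they held 26.2% ± 1.81 (SD, n = 6) of known counts. Most of this came from bta-miR-26a with 18.1% ± 1.73 (SD, n = 6), whose log2 fold change was 0.07 (SE 0.38; edgeR adjusted p = 0.986). The summed share was 26.2% ± 2.26 (SD, n = 3) with the control and 26.2% ± 1.77 (SD, n = 3) with the replacement diet. Of 16 tested, 0 passed, 7 were above and 9 below 0, and the median log2 fold change was -0.05; with library size alone 11 were above 0.

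The list of adipocyte and milk fat miRNAs had 27 of 29 names with a row and held 8.59% ± 0.970 (SD, n = 6). bta-miR-30d, which has been linked to fat cell formation, was its most abundant member with 2.87% ± 0.878 (SD, n = 6) and a log2 fold change of 0.52 (SE 0.51; edgeR adjusted p = 0.986). Of 16 tested, 0 passed, with 7 above and 9 below 0 and a median of -0.06. With library size alone, 13 were above 0. The sums were 8.26% ± 1.23 (SD, n = 3) with the control and 8.93% ± 0.704 (SD, n = 3) with the replacement diet, a difference smaller than the SD of the control cows.

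Markers of cells that can shed RNA into milk were summed as well. Of 8 red blood cell markers 7 had a row. Their sum was 10.9%, 7.21% and 20.1% in control cows 1 to 3 and 6.52%, 9.51% and 10.9% in replacement cows 1 to 3. In RPM it was 588, 923 and 990 in control cows 1 to 3 and 863, 755 and 603 in replacement cows 1 to 3. Control cow 3 thus stood far apart as a share but not in RPM. The most abundant was bta-miR-486 with 6.83% ± 2.77 (SD, n = 6), and bta-miR-16a and bta-miR-16b were at 0 in some replacement cows. bta-miR-103 had its highest share in control cow 3 and its lowest in replacement cow 3, while its highest RPM was in control cow 2. All 7 had a log2 fold change below 0 with TMM, with a median of -0.64, and 4 of 7 with library size alone. The TMM median is again the value of bta-miR-16a, and 0 passed the test. Without control cow 3, the fitted log2 fold change of bta-miR-103 was -1.58. The part of red blood cell RNA in the result was not tested.

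Leukocyte markers, with all 8 names found, summed to 3.18% ± 0.540 (SD, n = 6), and bta-miR-150 led them with 1.51% ± 0.447 (SD, n = 6). The 11 mammary epithelium markers all had a row but summed to 0.865% ± 0.236 (SD, n = 6), of which bta-miR-148a held 0.639% ± 0.192 (SD, n = 6). bta-miR-200b had 2 counts in all 6 cows together and bta-miR-429 had 21. The mammary sum was 1.16%, 0.872% and 1.02% in control cows and 0.861%, 0.459% and 0.819% in replacement cows, with the nearest cows at 0.872% and 0.861%. In RPM it was 62.5, 112 and 50.1 in control cows and 114, 36.4 and 45.2 in replacement cows, so the diets overlapped on that scale. Of 7 mammary markers tested 0 passed, with 2 above and 5 below 0, and of 8 leukocyte markers 0 passed, with 4 above and 4 below 0. With library size alone, 3 of the 7 mammary markers and all 8 leukocyte markers were above 0. Fewer vesicles of a cell type and less of a miRNA per vesicle cannot be told apart in these libraries.

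**Figure D5:**
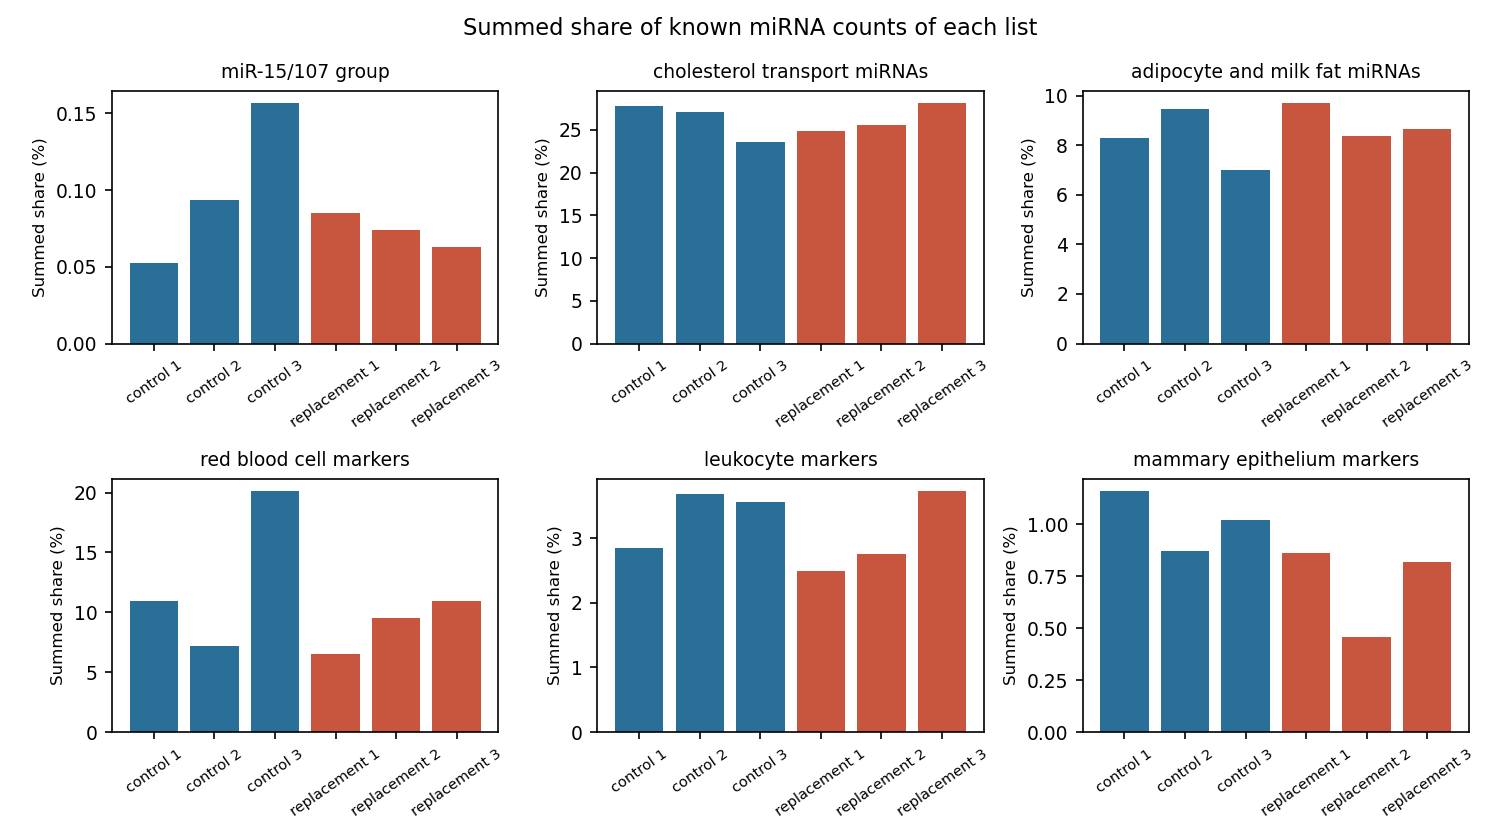
Bars give the summed share of known miRNA counts (vertical axis, percent) of 6 lists of miRNAs in each cow, with control cows in blue and replacement cows in red. Control cow 3 reaches 20.1% for the red blood cell markers, and the other 5 cows lie between 6.52% and 10.9%. In RPM, which is not plotted, that cow has 990 against 923 in control cow 2.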

How the data were processed

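Small RNA libraries of milk EVs from 6 cows were compared by diet, taken from the sample labels. According to the methods and the submitters' processing notes, the authors trimmed reads with cutadapt 1.14, aligned them to the cow genome (ARS-UCD1.2; Bowtie is named) and annotated them with miRBase and miRDeep2. The authors deposited whole-number counts per mature miRNA without normalization. They deposited the same values as RPM under the name TPM, where each count was divided by 1 total per cow of 12130660 to 13369168 reads, with no length term. A table of the authors' comparison (fold changes and p-values), with 6 per-sample columns, was not used. The treatment of reads fitting more than 1 miRNA is not given in the sources used here.

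Shares, means with SD, 95% Wilson intervals and the limit of 3 counts for a count of 0 were computed with Python 3.11.15, pandas 2.3.3 and scipy 1.17.1. The diets were compared with edgeR 4.0.16 in R 4.3.3 by its quasi-likelihood test after TMM scaling and its default count filter, with p-values adjusted by Benjamini-Hochberg over 227 miRNAs. The SE of an edgeR log2 fold change was its size divided by the square root of the F statistic of that test. DESeq2 1.42.0 and limma 3.58.1 served as other tools. The fitting code was run on simulated counts with planted changes. The rate of recovery is not given here, so the simulation says nothing about what 0 calls mean. All miRNA counts of a cow summed to 271061 to 556489 before the filter. Other alternatives were other normalizations, filters, totals and averages, and each cow left out. Named miRNAs were the members, miRNAs with their seed or sequence, the 5 nearest patterns, the 3 neighbours in share on each side, up to 3 non-overlapping miRNAs per direction, and the most abundant and any called miRNA of each list; further names followed their values. The members and lists were chosen with earlier results of these data known. The lists share members, among them bta-miR-148a, so they are not independent. Gene positions came from RefSeq (ARS-UCD2.0) by name only.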

Additional observations from a re-analysis of the deposited data

Results flagged for a closer look

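Of 12 results examined over the 6 cows of both diets together, 2 had a single cow far from the other 5, where a rate of 1 in 20 gives 0.6. The first of them is set by detection in 1 cow alone and says no more than that. The share of bta-miR-33a was 0.0136% in control cow 2, from 22 counts, and 0% in the other 5 cows. The summed share of the red blood cell markers was 20.1% in control cow 3, and the other 5 cows lay between 6.52% and 10.9%. In RPM that cow did not stand far apart, with 990 against 923 in control cow 2.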

How the results depend on the processing

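Of 155 alternative values, 136 kept their direction and side of the threshold or moved by less than the spread between cows, among them 4 mean shares from RPM that equal those from counts by construction. In edgeR 0 of 227 miRNAs were called with the filter on low counts and 15 of 779 without it. DESeq2, also run on all 779, called 3 of the 767 with an adjusted p. With a cow left out, edgeR called 0 to 1. None of the called miRNAs was a known one. The log2 fold change of bta-miR-103 was -1.07 with library size alone and -0.55 when counted as 1 miRNA with bta-miR-107, against -1.70. For bta-miR-107 the latter value, -0.55, had the opposite sign to 1.92; the setting adds the counts of bta-miR-103. bta-miR-107 ranged from 1.42 to 3.05 and bta-miR-378 from -3.94 to -2.32 with a cow left out; limma-voom gave 3.43 and -3.18.

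Over known and predicted miRNAs together, mean shares were lower by construction, at 0.0315% for bta-miR-103, 0.0182% for bta-miR-107 and 0.00331% for bta-miR-378. The log2 ratio of mean shares of bta-miR-103 was then -1.08, and -1.39 in RPM, against -1.87; the counts were the same and only the total they were divided by differed. It was -1.96 with the red blood cell markers taken out of the total, a setting chosen after seeing the data. Non-overlapping known miRNAs numbered 4 of those with 100 or more counts on average, and 19 to 33 with a cow left out, where fewer cows must stand apart, against 12 of 144. The stricter minimum leaves fewer miRNAs than 144. The numbers considered in these settings are not given, so no rates are compared. The geometric mean ratio of bta-miR-103 to bta-miR-107 was 3.68 over both diets, and 1.64 to 6.08 with a cow left out. It was 20.7 with the control and 0.65 with the replacement diet. The control value includes a ratio of 210 in control cow 2, from 1 count of bta-miR-107. Control cows 1 and 3 had ratios of 9 and 4.72.

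With the replicate block, the number of calls stayed at 0 and the log2 fold change was -1.78 for bta-miR-103, 2.54 for bta-miR-107 and -3.34 for bta-miR-378. The deviations of same-numbered cows correlated at -0.1145, -0.178 and 0.173, and only the cows numbered 3 correlated best with each other, so the numbers were not taken as pairs. With 0 to 29 counts per cow, bta-miR-378 and bta-miR-33a are limited by depth.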

Other observations

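The share of known miRNAs in all miRNA counts was 21.5%, 29.0% and 15.8% in control cows 1 to 3 and 42.0%, 35.2% and 25.7% in replacement cows 1 to 3, so the scale on which a known miRNA is expressed changes its difference between diets. The miRNA with the highest mean log2 CPM in the fit, 19.0, was a predicted one. Its log2 fold change was -1.28, and it was not called. It weighs on every total of known and predicted miRNAs. Of all miRNA counts, bta-miR-103 held 0.0466%, 0.0377% and 0.0438% in control cows and 0.0280%, 0.0212% and 0.0114% in replacement cows. Within the diets, the SD of the log2 TMM-normalized CPM was 0.52 for bta-miR-103 and 1.86 for bta-miR-107, against a median of 0.95 over 144 known miRNAs.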
